A study of Mus musculus with 4 samples.

Results

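Chemokines and chemokine receptors were examined in 4 Affymetrix arrays of mouse hematopoietic stem and progenitor cells, comparing Klf7 knockout with wild type. The genes were chosen by symbol: every probe set with a single gene symbol of the Ccl, Cxcl, Ccr or Cxcr families, or of Ccrl2, Xcl1, Xcr1, Cx3cl1, Cx3cr1 or Ackr3. That gave 58 probe sets of 53 genes, 34 ligands and 19 receptors, among 19938 named genes and 28939 probe sets tested. Each gene is represented by its brightest probe set over the 4 arrays. Another 7 probe sets carried several symbols including a chemokine and were not members. The 2 knockout arrays held Klf7-/- cells and the 2 wild-type arrays Klf7+/+ cells, all on a C57Bl/6 background. The cells were sorted from bone marrow as Lin- c-Kit+ Sca-1+ (KLS). Per the series' design text, the mice were chimeras made with fetal liver cells, so their marrow mixed Klf7+/+ and Klf7-/- cells. The sort markers named here do not separate these genotypes, and how pure each array was for its genotype was not tested. How many mice stand behind an array is not stated, so the p-values reflect array-to-array spread that may be purely technical.

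Chemokines are small secreted proteins that guide cell migration and are classed as CXC, CC, XC or CX3C by the spacing of their first cysteines. They bind G protein-coupled receptors that signal mainly through inhibitory G proteins, while atypical receptors bind ligands without that coupling. In bone marrow, the ligand Cxcl12 made by stromal cells retains stem and progenitor cells through Cxcr4, and Cxcr2 ligands draw out neutrophils. Klf7 encodes a Kruppel-like zinc finger factor, a family that binds CACCC and GC-rich DNA.

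The arrays had median intensities of 51.01 to 52.26 and correlated across probe sets at 0.961 to 0.969, where probe sets are not independent replicates. Klf7 itself read 6.59 and 6.18 (log2 intensity) in knockout arrays, against 5.95 and 6.10 in wild-type arrays. It was thus not lower under the knockout label, and since no source used here gives the deleted part of the gene, the probe set checks nothing. The arrays are called knockout and wild type by their labels throughout. Xist read 11.76 and 11.58 in knockout arrays, against 5.24 and 4.80 in wild-type arrays, while the Y-linked Uty, Eif2s3y and Kdm5d lay the other way without overlap. Sex-linked transcripts therefore divide the arrays exactly as genotype does, and sex and genotype cannot be told apart in any value below. The sort antigen gene Kit read 10.12 and 9.92 in knockout arrays and 9.55 and 9.71 in wild-type arrays. Of 8 KLS marker genes measured, 7 were higher in knockout, 6 of them without overlap (14.5% of all genes were higher without overlap). The differences were 0.62 ± 0.15 for Cd34, 0.48 ± 0.19 for Flt3, 0.40 ± 0.22 for Hlf and -0.71 ± 0.25 for Mecom, and the markers' summed intensity was 4716.9 to 4758.0 in knockout and 3384.5 to 3758.1 in wild type. Summed T and NK cell markers overlapped, at 569.2 to 630.0 in knockout and 502.7 to 680.0 in wild type. Of these 9 genes, 8 were lower in knockout (55.0% of all genes were), 2 of them without overlap (18.6% of all genes). Nkg7, the brightest, was the 1 that was higher, and it weighs most in the sum. No detection calls were used, so absence of a lineage gene could not be read from such values. In bulk samples, fewer cells of a type and less RNA per cell cannot be told apart.

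No chemokine or receptor gene differed between knockout and wild type past the threshold. In the limma fit over all probe sets, 0 of 53 had a Benjamini-Hochberg adjusted p under 0.05, against 0.00346% of all probe sets, and the smallest adjusted p was 0.945. At an unadjusted p under 0.05 there was 1 gene, Cxcl2, against 4.81% of all genes. The count of 0 held in the other settings that kept all 4 arrays. The only probe set past the threshold was that of Xist, at 6.65, while Eif2s3y at -4.58 had a limma adjusted p of 0.648. With 2 arrays per group even large differences thus went uncalled, and the 0 does not show that the members were unchanged. Groups did not overlap (both knockout arrays above or below both wild-type arrays) in 14 of the 53 genes, or 26.4%, against 33.2% of all genes. These 14 divided into 11 lower in knockout (20.8%, against 18.6% of all genes) and 3 higher (5.66%, against 14.5%). With 1 array left out, overlap is easier to avoid, and the count was 31 of 53 without knockout replicate 1 (64.1% of all genes), 28 without knockout replicate 2 (65.7% of all genes), 33 without wild-type replicate 1 (69.6% of all genes) and 42 without wild-type replicate 2 (66.6% of all genes). The median difference, knockout minus wild type, was -0.07 on the log2 scale, against -0.03 for all genes, and it was -0.03 without wild-type replicate 2. Lower in knockout at any size were 36 of 53 genes (67.9%), against 55.0% of all genes.

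Cxcl2 and Ccrl2 had the largest differences of the 53. They were the only members without overlap that differed at least 1.5-fold, 3.77% of the 53 against 5.14% of all genes. Among genes above the median level, these are 2 of 20 members, against 7.86% of all such genes. None reached 2-fold without overlap, against 1.22% of all genes. Differences of at least 0.5 either way were found in 3 genes (5.66%, against 9.65% of all genes), the third being the overlapping receptor gene Cxcr2. The other 50 members lay between -0.41 and 0.43.

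**Figure D1:**
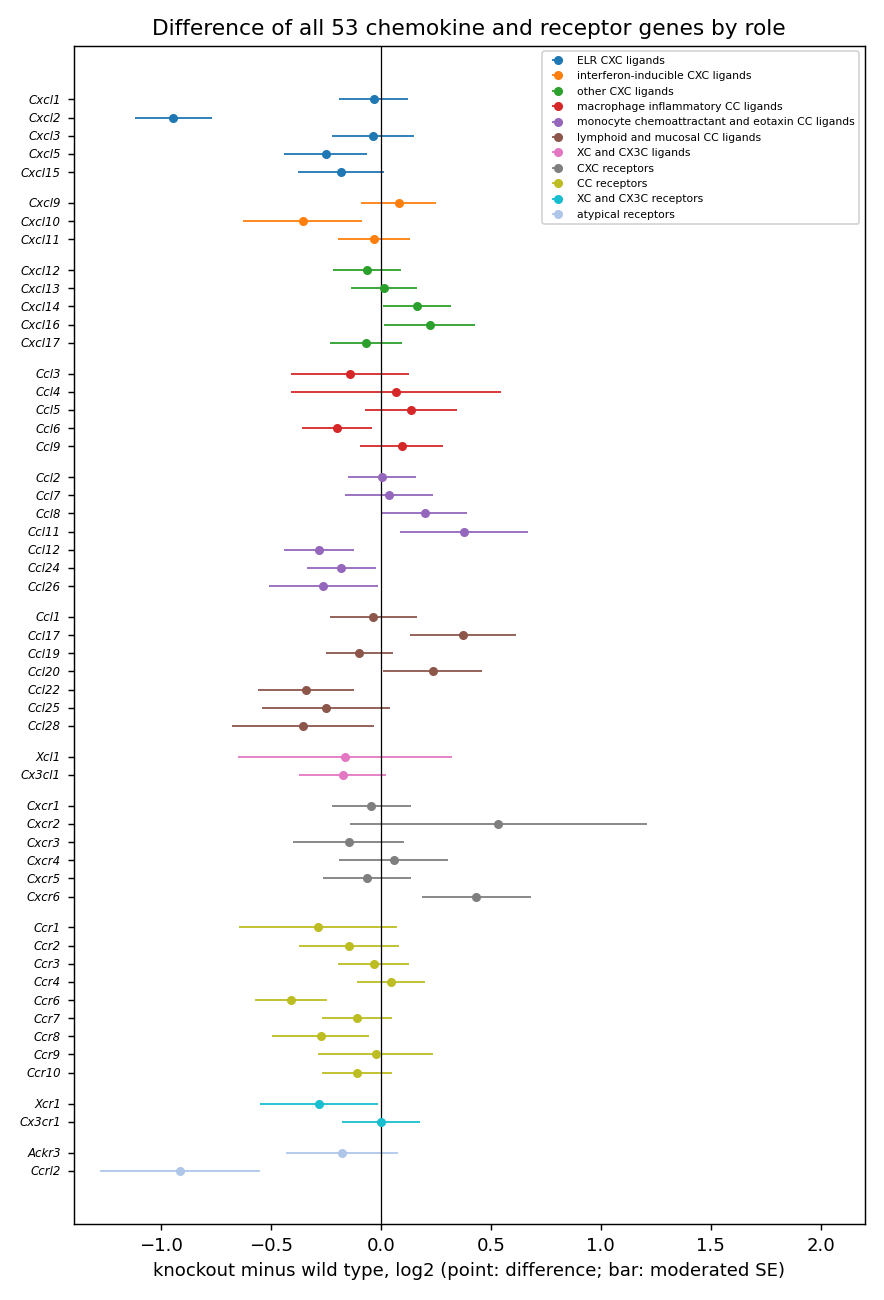
Knockout minus wild type difference of log2 intensity for all 53 genes, grouped by role and coloured by group. Points are limma differences and bars the moderated SE (n = 2 arrays per group). Cxcl2 at -0.95 and Ccrl2 at -0.92 lie farthest to the left, and Cxcr2 at 0.53 has the widest bar.

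Cxcl2 belongs to the ELR CXC ligands, the neutrophil attractants that act on Cxcr2 and are induced through NF-kB in inflammation. It read 6.04 and 6.07 in knockout arrays, against 7.14 and 6.87 in wild-type arrays. Both knockout readings lay close together and below both wild-type readings, with 0.79 between the nearest pair. Knockout minus wild type came to -0.95 ± 0.18 (SE, 2 arrays per group, 95% confidence interval -1.41 to -0.48), 1.93-fold lower, with an unadjusted p of 0.00376 and a limma adjusted p of 0.945. It lay between -1.08 and -0.81 with any single array left out. Adding 32 to every intensity before the log, which shrinks differences at low signal, gave -0.70.

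RefSeq places the 5 ELR ligand genes among the 53 members on chromosome 5 in the order Cxcl5, Cxcl3, Cxcl15, Cxcl1, Cxcl2. The platelet chemokine genes Ppbp and Pf4 lie between Cxcl5 and Cxcl3 and fall outside the symbol rule. Named after its values were seen, Ppbp was higher in knockout without overlap by 1.24 ± 0.33. Pf4 overlapped at 0.28 ± 0.33. Cxcl1, a close paralogue of Cxcl2 with the same receptor, read 5.71 and 5.81 in knockout arrays, against 5.82 and 5.77 in wild-type arrays. Its groups overlapped, and the difference was -0.03 ± 0.16 (95% confidence interval -0.44 to 0.37). Cxcl3, another paralogue, read 6.00 and 5.76 in knockout arrays, against 5.80 and 6.03 in wild-type arrays. It overlapped as well, at -0.04 ± 0.19. The dim members Cxcl5 and Cxcl15 differed by -0.25 and -0.18, Cxcl5 without overlap and Cxcl15 with overlap, and all their readings lay between 3.37 and 4.34. Paralogues can share probe signal, and how far these probe sets do was not tested. Within each array, the log2 ratio of Cxcl2 to Cxcl1 was 0.33 and 0.26 in knockout, against 1.32 and 1.10 in wild type. The ratio to Cxcl3 was 0.05 and 0.31 in knockout, against 1.34 and 0.83 in wild type. Both ratios were lower in both knockout arrays. These ratios restate the values above and are given as a description with no test, since the genes were chosen after their values were seen.

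The sequences before the starts of Cxcl2, Cxcl1 and Cxcl3 are shown because these neighbours share a regulatory motif while Cxcl2 had the larger difference. Each is the 250 bases before the RefSeq start, 5′ to 3′ on the plus strand of GRCm38.p6, at chr5:90903649-90903898 for Cxcl2, chr5:90890995-90891244 for Cxcl1 and chr5:90785851-90786100 for Cxcl3. Capitals mark GGGAATTTCCC, the longest run that all 3 windows share and one that holds a kappa B type sequence bound by NF-kB, and CACCC or its reverse complement GGGTG.
Cxcl2: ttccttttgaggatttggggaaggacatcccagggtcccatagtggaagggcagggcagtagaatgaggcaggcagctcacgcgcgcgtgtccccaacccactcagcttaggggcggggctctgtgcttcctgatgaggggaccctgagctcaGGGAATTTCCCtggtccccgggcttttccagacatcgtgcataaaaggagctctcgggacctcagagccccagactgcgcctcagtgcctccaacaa
Cxcl1: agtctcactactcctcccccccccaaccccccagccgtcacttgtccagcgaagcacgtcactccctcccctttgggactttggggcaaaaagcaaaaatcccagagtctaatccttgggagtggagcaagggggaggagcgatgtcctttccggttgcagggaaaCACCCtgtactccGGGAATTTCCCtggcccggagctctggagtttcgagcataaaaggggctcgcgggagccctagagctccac
Cxcl3: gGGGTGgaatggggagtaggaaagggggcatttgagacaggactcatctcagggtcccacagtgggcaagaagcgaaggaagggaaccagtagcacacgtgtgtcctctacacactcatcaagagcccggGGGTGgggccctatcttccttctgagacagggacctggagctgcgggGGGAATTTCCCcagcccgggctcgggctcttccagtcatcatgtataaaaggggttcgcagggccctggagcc
GGGAATTTCCC starts 97 bases before the start in Cxcl2, 71 in Cxcl1 and 73 in Cxcl3. The longest run shared by Cxcl2 and Cxcl1 was GGGAATTTCCCTGG, which extends this motif. CACCC in either orientation was found once in Cxcl1 and at 2 places in Cxcl3, and was not matched in the Cxcl2 window. GGGCGG, a GC box, was found in the Cxcl2 window and not in those of Cxcl1 and Cxcl3. RefSeq windows were matched for 39 of the 53 members and 27025 genes in all. Searched on both strands, with no overlap between motifs in the windows shown, GGGAATTTCCC was present in 3 members, 7.69%, against 0.0518% of all genes. Those members are Cxcl1, Cxcl2 and Cxcl3 themselves, whose windows defined the motif, so this share supports nothing. CACCC was present in 56.4% of members and 54.5% of all genes, GGGCGG in 20.5% and 35.4%, and TATAAA in 30.8% and 14.3%. A match describes letters in the window and does not show binding.

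**Figure D2:**
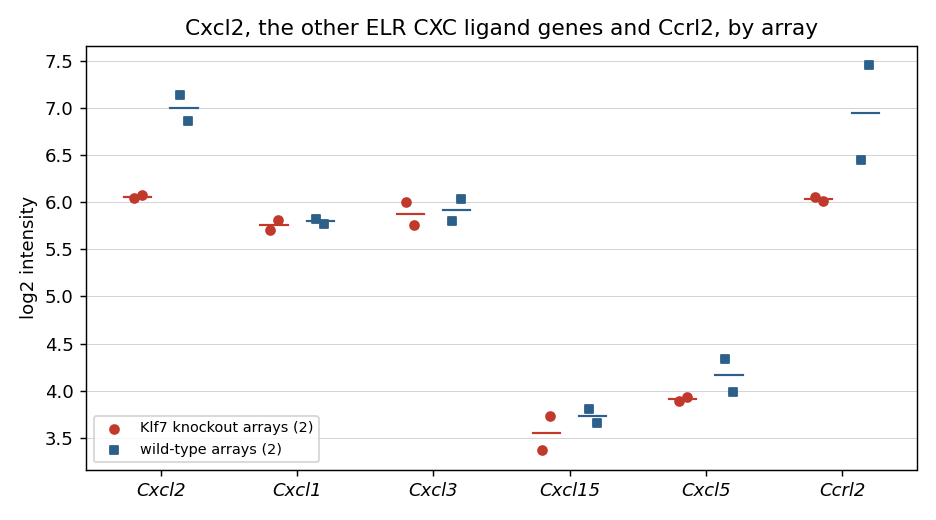
Log2 intensity of Cxcl2, the other 4 ELR CXC ligand genes among the 53 members and Ccrl2 on each array. A line marks each group mean (n = 2 arrays per group). The knockout arrays sit below the wild-type arrays for Cxcl2 (6.04 and 6.07 against 7.14 and 6.87) and Ccrl2, while Cxcl1, Cxcl3 and Cxcl15 overlap and Cxcl5 does not.

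Beside Cxcl2, markers of myeloid cells that can make it were read. The macrophage genes Lyz2 and Cd68 overlapped, at -0.53 ± 0.37 and 0.28 ± 0.38. Of 7 monocyte and macrophage genes measured, 2 were higher and 5 lower in knockout (55.0% of all genes were lower). Their summed intensity was 457.6 to 458.8 in knockout and 468.7 to 530.3 in wild type. Cd14, a co-receptor for bacterial lipopolysaccharide, was the only one of them without overlap, at 4.90 and 5.01 in knockout arrays and 5.19 and 5.27 in wild-type arrays. Of 9 neutrophil genes, 5 were higher and 4 lower in knockout. Their sums were 1995.6 to 3930.1 in knockout and 2756.2 to 2925.1 in wild type, which overlap. The largest differences above the median level were -0.24 ± 0.90 for S100a9, 0.11 ± 0.69 for S100a8, 0.49 ± 0.37 for Ngp and 0.52 ± 0.60 for Camp, all with overlap. Elastase gene Elane was the neutrophil gene without overlap, at 5.04 and 5.41 in knockout arrays and 6.83 and 5.75 in wild-type arrays. Its difference of -1.07 ± 0.40 was -0.53 without wild-type replicate 1. Of all genes, 18.6% were lower without overlap, so 1 such gene in lists of 7 and 9 is no excess. Cd14 and Elane are named after their values were seen. Intensities have no true zero here, so no marker was at 0. The part of these cells in the Cxcl2 difference was not tested.

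The remaining CXC ligands showed small differences. Cxcl9, which with Cxcl10 and Cxcl11 is induced by interferon and acts on Cxcr3, read 5.86 and 5.82 in knockout arrays, against 5.64 and 5.88 in wild-type arrays. Cxcl10 and Cxcl11, both dim, differed by -0.36 and -0.03, and all 3 genes overlapped. Cxcl17, a mucosal chemokine, read 6.47 and 6.52 in knockout arrays, against 6.46 and 6.67 in wild-type arrays, a difference of -0.07 ± 0.17. The niche ligand gene Cxcl12 was dim, at 5.19 and 5.14 in knockout arrays and 5.27 and 5.19 in wild-type arrays. Its groups overlapped, at -0.07 ± 0.15. Cxcl13, Cxcl14 and Cxcl16, which attract B cells, monocytes and Cxcr6-bearing T cells, were at 0.01, 0.16 and 0.22, the first pair without overlap. For Cxcl13 the lack of overlap rests on readings of 5.37 and 5.39 in knockout arrays and 5.37 and 5.36 in wild-type arrays.

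Of 5 CC ligands of the macrophage inflammatory protein group, 3 were higher and 2 lower in knockout (55.0% of all genes were lower). Only Ccl6 did not overlap (33.2% of all genes did not). Ccl3, which acts on Ccr1 and is known to restrain progenitor proliferation, read 9.77 and 9.24 in knockout arrays, against 9.85 and 9.44 in wild-type arrays. The groups overlapped and the difference was -0.14 ± 0.27 (95% confidence interval -0.84 to 0.56). Ccl4, encoded beside it on chromosome 11, read 8.38 and 8.65 in knockout arrays, against 7.77 and 9.13 in wild-type arrays. Both knockout readings fell between the wild-type ones, and the difference of 0.07 ± 0.48 was -0.61 without wild-type replicate 1 and 0.74 without wild-type replicate 2. Ccl5 (RANTES), a T cell and monocyte attractant, read 6.85 and 6.92 in knockout arrays, against 6.53 and 6.98 in wild-type arrays. It overlapped, at 0.14 ± 0.21. Ccl9, a myeloid chemokine known from rodents, read 7.15 and 6.81 in knockout arrays, against 6.94 and 6.83 in wild-type arrays, and overlapped too, at 0.09 ± 0.19. Its relative Ccl6, dim, was at -0.20 without overlap.

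The monocyte chemoattractant and eotaxin genes lay on both sides of 0. Of 7, 4 were higher and 3 lower in knockout (55.0% of all genes were lower). Ccl11 (eotaxin), an eosinophil attractant, read 6.11 and 6.15 in knockout arrays, against 5.37 and 6.13 in wild-type arrays. Only wild-type replicate 1 was low, and the difference of 0.38 ± 0.29 was -0.00122 without it. Ccl2, the main ligand of Ccr2, read 5.26 and 5.31 in knockout arrays, against 5.25 and 5.31 in wild-type arrays. Ccl7, Ccl8, Ccl12, Ccl24 and Ccl26 were dim, between -0.28 and 0.20, with Ccl12 and Ccl24 lower without overlap (18.6% of all genes were).

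Of 7 CC ligands of lymphoid and mucosal tissues, 5 were lower and 2 higher in knockout (55.0% of all genes were lower). Ccl19, the Ccr7 ligand that brings T cells and dendritic cells into lymph nodes, read 6.05 and 6.12 in knockout arrays, against 6.17 and 6.19 in wild-type arrays. That is a difference of -0.10 ± 0.15 without overlap, but its 5 probe sets ran from -0.10 to 0.05. A pair of these probe sets held equal values on all arrays and cannot count as separate readings. Ccl25, the gut and thymus ligand of Ccr9, read 5.50 and 5.85 in knockout arrays, against 6.26 and 5.59 in wild-type arrays, and overlapped at -0.25 ± 0.29. Its second probe set read 5.60 and 5.63 in knockout arrays, against 5.12 and 5.21 in wild-type arrays. That probe set lay higher in knockout without overlap, at 0.45 ± 0.15 with a limma adjusted p of 0.945, so the 2 probe sets disagree in direction. Ccl1, the Ccr8 ligand, read 5.76 and 5.76 in knockout arrays, against 5.60 and 5.99 in wild-type arrays, a difference of -0.04 ± 0.20. Ccl17 and Ccl22, both Ccr4 ligands, went opposite ways at 0.37 and -0.34. Ccl20 (for Ccr6) was at 0.23 and Ccl28 (for Ccr10) at -0.36. Of these 4 dim genes only Ccl22 did not overlap (33.2% of all genes did not).

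The XC and CX3C ligands were both lower with overlap. Xcl1 (lymphotactin), which attracts cross-presenting dendritic cells through Xcr1, read 6.41 and 6.79 in knockout arrays, against 7.44 and 6.09 in wild-type arrays. The wild-type arrays held both the highest and the lowest reading, so the difference of -0.16 ± 0.49 was -0.84 without wild-type replicate 2 and 0.51 without wild-type replicate 1. Cx3cl1 (fractalkine), a membrane-bound chemokine, was at -0.17 ± 0.20.

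**Figure D3:**
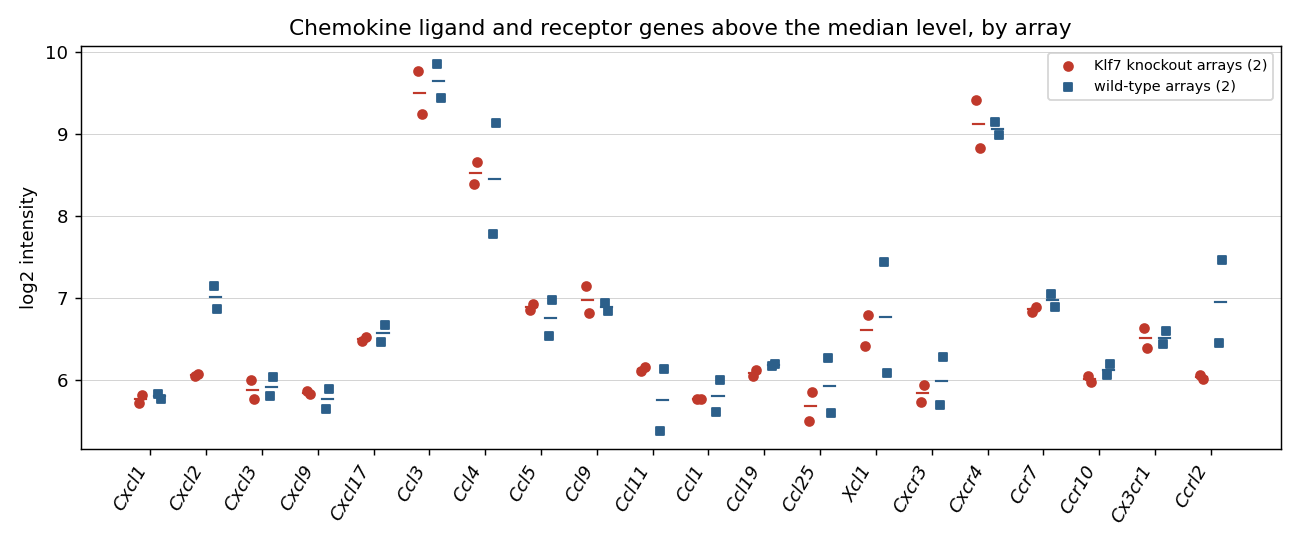
Log2 intensity on each array of the 20 genes whose mean lay above the median gene level of 5.77, ordered by role, with a line at each group mean (n = 2 arrays per group). Knockout and wild-type arrays do not overlap for Cxcl2, Ccl19, Ccr7, Ccr10 and Ccrl2, and the wild-type arrays are far apart for Ccl4 and Xcl1. Heights of different genes come from different probes and are not comparable as transcript amounts.

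Of 19 receptor genes, 15 were lower and 4 higher in knockout (55.0% of all genes were lower), and their median difference was -0.11. Groups did not overlap in 5 of them, or 26.3%, against 33.2% of all genes. Cxcr4, the Cxcl12 receptor that holds stem cells in the marrow, read 9.41 and 8.83 in knockout arrays, against 9.14 and 8.98 in wild-type arrays. The wild-type readings fell between the knockout ones, at a difference of 0.06 ± 0.25 (95% confidence interval -0.60 to 0.71). Ackr3, the atypical scavenger of Cxcl12, was dim and overlapped at -0.18 ± 0.26. Cxcr3, the receptor of interferon-induced ligands on activated T cells, is X-linked and read 5.73 and 5.94 in knockout arrays, against 5.69 and 6.27 in wild-type arrays. It overlapped at -0.15 ± 0.25. Cxcr2, the neutrophil receptor of Cxcl2, read 5.36 and 5.28 in knockout arrays, against 3.78 and 5.79 in wild-type arrays. Its difference of 0.53 ± 0.68 was 1.54 without wild-type replicate 2 and -0.47 without wild-type replicate 1. Cxcr6 was higher without overlap, at 6.20 and 5.66 in knockout arrays and 5.63 and 5.36 in wild-type arrays, a difference of 0.43 ± 0.25 with 0.03 between the nearest pair. It was 0.16 without knockout replicate 1 and 0.70 without knockout replicate 2. Cxcr1 and Cxcr5 overlapped at -0.04 and -0.06. Cxcr2, Cxcr6 and the other genes below the median level are named after their values were seen.

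In the CC receptor group, 8 of 9 genes were lower in knockout, where 55.0% of all genes were, and 3 did not overlap, or 33.3%, against 33.2% of all genes. Ccr7, which guides T cells and dendritic cells towards Ccl19, read 6.83 and 6.89 in knockout arrays, against 7.05 and 6.89 in wild-type arrays. The nearest pair lay 0.0076 apart, and the difference was -0.11 ± 0.16. Ccr10, a homing receptor of skin T cells and of plasma cells, read 6.05 and 5.97 in knockout arrays, against 6.06 and 6.19 in wild-type arrays. Here the nearest pair lay 0.00418 apart, and the difference was -0.11 ± 0.16. Ccr6, the Ccl20 receptor, was dim at 4.43 and 4.64 in knockout arrays and 4.95 and 4.94 in wild-type arrays. Its groups were 0.30 apart at the nearest, and the difference was -0.41 ± 0.17 with a limma adjusted p of 0.945. Ccr1, Ccr2, Ccr3, Ccr4, Ccr8 and Ccr9 all overlapped, between -0.29 and 0.04. Cx3cr1, the fractalkine receptor of monocytes, read 6.63 and 6.39 in knockout arrays, against 6.43 and 6.59 in wild-type arrays, at -0.00241 ± 0.18. Xcr1, dim, was at -0.28 with overlap.

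Ccrl2 encodes an atypical receptor that binds the attractant chemerin and presents it to cells bearing Cmklr1. It read 6.06 and 6.01 in knockout arrays, against 6.45 and 7.46 in wild-type arrays. Both knockout readings were lower than both wild-type readings, but wild-type replicate 2 was 1.00 above its partner. The difference of -0.92 ± 0.36 (95% confidence interval -1.87 to 0.04), 1.89-fold, had an unadjusted p of 0.0567 and a limma adjusted p of 0.945. It was -1.42 without wild-type replicate 1 and -0.41 without wild-type replicate 2. RefSeq lists 3 starts for Ccrl2 on chromosome 9, and none of their windows holds GGGAATTTCCC. Only 0.0518% of all genes hold that run, so its absence here says nothing. Numbered in the direction of transcription, start 1 had GGGCGG in its window (35.4% of all genes). Starts 2 and 3, whose windows overlap, had CACCC in either orientation (54.5% of all genes). Cmklr1, the signalling receptor of chemerin, read 5.99 and 6.06 in knockout arrays, against 6.15 and 6.04 in wild-type arrays. Cxcl2 was highest in wild-type replicate 1 and Ccrl2 in wild-type replicate 2.

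Spread within groups was as large as most differences. In 46 of 53 genes (86.8%, against 78.5% of all genes), the gap between the 2 arrays of a group exceeded the difference between groups. A 2-fold gap was found in 0 members within knockout and in 4 within wild type, namely Ccl4, Ccrl2, Cxcr2 and Xcl1. Of all 19938 genes, 702 had such a gap within knockout and 910 within wild type. Between arrays of different genotype the count was 1 to 3. By chromosome, 14 members lie on chromosome 11, 11 on chromosome 5 and 11 on chromosome 9. Lower in knockout were 6 of those on chromosome 11, 9 on chromosome 5 and 9 on chromosome 9, with medians of 0.02, -0.18 and -0.06. Of all genes 55.0% were lower, and the share among all genes of each chromosome was not computed.

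**Figure D4:**
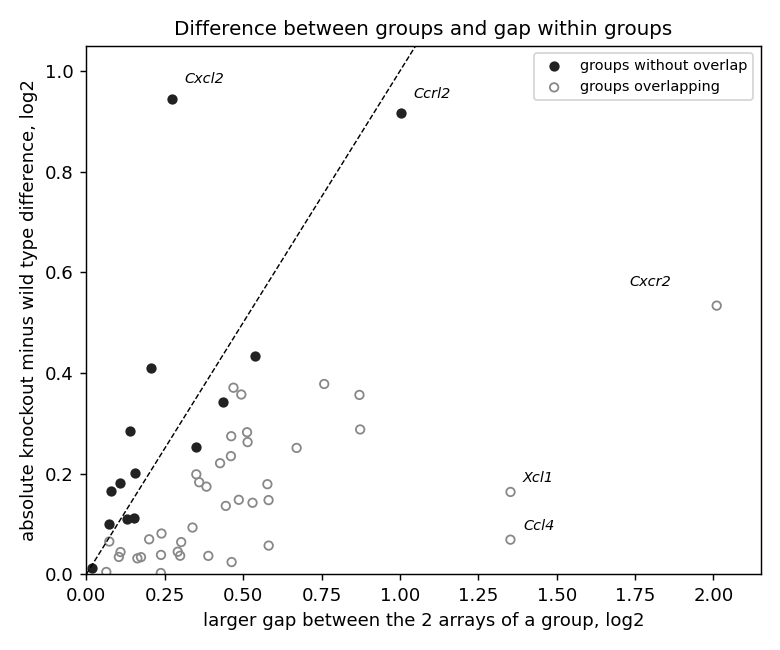
Absolute difference between groups against the larger gap between the 2 arrays of a group, both on the log2 scale, for the 53 genes. Filled points are genes whose groups do not overlap, and the dashed line marks equality. Cxcl2 lies far above the line at 0.95 against a gap of 0.27, whereas Ccrl2 lies just below it and Cxcr2, Ccl4 and Xcl1 far to the right.

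Other genes of the pathway gave 0 calls in limma. Measured genes of chemokine receptor signalling numbered 32 (G proteins, arrestins, receptor kinases, Rac regulators and Rgs proteins). Of these, 18 were higher and 14 lower in knockout (55.0% of all genes were lower), and their median was 0.04. Without overlap were 6 higher and 6 lower (14.5% and 18.6% of all genes), and 1 had an unadjusted p under 0.05 (4.81% of all genes). Rgs14, a regulator that switches off inhibitory G proteins, read 6.57 and 6.62 in knockout arrays, against 6.13 and 5.98 in wild-type arrays, a difference of 0.54 ± 0.16. Gnai2, the inhibitory G protein subunit used by most chemokine receptors, read 9.63 and 9.98 in knockout arrays, against 9.53 and 9.33 in wild-type arrays. It was higher without overlap by 0.38 ± 0.20, but by 0.20 without knockout replicate 2 and 0.55 without knockout replicate 1. Gnaq, of another G protein class, read 7.36 and 6.59 in knockout arrays, against 7.85 and 7.39 in wild-type arrays. It was lower without overlap, at -0.64 ± 0.33, and ranged from -1.03 without knockout replicate 1 to -0.26 without knockout replicate 2. Vav1, an activator of Rac, read 7.63 and 6.19 in knockout arrays, against 6.66 and 6.42 in wild-type arrays. Its groups overlapped, at 0.37 ± 0.51, and the difference was -0.35 without knockout replicate 1.

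Chemokines and scavengers whose symbols fall outside the family pattern were also read, 9 genes with 3 higher and 6 lower (55.0% of all genes were lower). Of these 9, 1 was higher and 2 lower without overlap (14.5% and 18.6% of all genes). Ppbp, the platelet chemokine precursor between Cxcl5 and Pf4, read 6.00 and 5.47 in knockout arrays, against 4.85 and 4.14 in wild-type arrays. Named after its values were seen, it was higher without overlap by 1.24 ± 0.33, with a limma adjusted p of 0.945. Its neighbour Pf4 read 8.84 and 8.51 in knockout arrays, against 8.81 and 7.97 in wild-type arrays, at 0.28 ± 0.33 with overlap. Mif, a cytokine that binds Cxcr4 and Cxcr2, read 10.19 and 10.01 in knockout arrays, against 10.26 and 10.39 in wild-type arrays. Its difference of -0.22 ± 0.17, without overlap, was -0.13 without knockout replicate 2. The Mif receptor gene Cd74, which also encodes the MHC class II invariant chain, read 6.88 and 6.93 in knockout arrays, against 7.73 and 7.18 in wild-type arrays. It was lower without overlap, at -0.55 ± 0.24, and ranged from -0.83 without wild-type replicate 2 to -0.28 without wild-type replicate 1. For 12 inflammatory inducers and targets, 5 were higher and 7 lower (55.0% of all genes were lower). Without overlap were 2 higher and 3 lower (14.5% and 18.6% of all genes), and 1 had an unadjusted limma p under 0.05 (4.81% of all genes). That gene was the dim Tnf, named after its values were seen. It read 5.30 and 5.38 in knockout arrays, against 5.73 and 6.06 in wild-type arrays, a difference of -0.55 ± 0.19 with a limma adjusted p of 0.945. Ptgs2, a prostaglandin synthase gene, read 7.46 and 6.58 in knockout arrays, against 6.37 and 5.94 in wild-type arrays. It was higher without overlap by 0.87 ± 0.36, but by 0.43 without knockout replicate 1 and 1.31 without knockout replicate 2. Tnfaip3, which encodes an NF-kB inhibitor, read 6.84 and 6.54 in knockout arrays, against 7.52 and 6.89 in wild-type arrays. It was lower without overlap, at -0.52 ± 0.27, and ranged from -0.83 without wild-type replicate 2 to -0.20 without wild-type replicate 1. Il1b, which induces Cxcl2, read 5.78 and 5.95 in knockout arrays, against 5.51 and 7.29 in wild-type arrays. Nfkbiz, an NF-kB cofactor, read 7.31 and 7.98 in knockout arrays, against 8.48 and 7.76 in wild-type arrays. Both genes overlapped, Il1b at -0.54 ± 0.61 and Nfkbiz at -0.48 ± 0.36, and Nfkbiz was at -0.12 without wild-type replicate 1.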

How the data were processed

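The authors deposited 1 intensity table for the 4 arrays. The submitters' processing notes list RMA and Affymetrix Expression Console but no version or setting. Values reached 17720.8 among tested probe sets, so they were read as linear and log2 was taken, with no further normalization. The first 6615 of 35554 probe sets, which precede the first annotated one, were assumed to be controls and left out. In the platform annotation 21789 tested probe sets carried 1 symbol, 1621 several, and 5529 were unlisted. The groups were compared with limma 3.58.1 under R 4.3.3 (a two-sided moderated test from lmFit and eBayes, no covariate, 2 residual degrees of freedom, Benjamini-Hochberg adjustment over 28939 probe sets, threshold 0.05). All adjusted p-values come from it, and SE is its moderated standard error. The fit was checked on simulated data. Precision is limited by the number of arrays.

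Per-array values are given for members whose mean exceeded the median of all genes (5.77), called dim otherwise, for dim members at least 0.5 apart without overlap (none met this), and for up to 4 genes above that median with the largest differences in the 3 pathway lists. The KLS, monocyte and neutrophil markers chosen by the same rule are given as differences, and T and NK cell markers as sums and counts by direction. Further genes were named after their values were seen. Members and lists were chosen with earlier results of these data known, and roles were assigned afterwards. Promoter windows are from RefSeq (GRCm38.p6), and the shared run was searched after the windows were seen. Settings also tried were quantile normalization again, cyclic loess, an offset of 32, dropping dim probe sets, an intensity trend, the replicate block, leaving out each array, averaging a gene's probe sets, a 1.5-fold limit and, added after the data were seen, the leading probe sets kept.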

Additional observations from a re-analysis of the deposited data

How the results depend on the processing

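The limma count of members past the threshold was 0 in every alternative that kept all 4 arrays, the replicate block included. In each of the 3 other lists it was 0 there too. These repeats say little about stability, since the main fit left even Eif2s3y uncalled at -4.58. Fits with an array left out had 1 residual degree of freedom, so no count is read from them. No label ties same-numbered arrays to a shared animal, and their deviations correlated at 0.0434. The members' median was -0.0264 with cyclic loess and -0.0796 to -0.0259 when single arrays were dropped. The count without overlap was 2 at 1.5-fold, and 28 to 42 when single arrays were dropped, since fewer arrays make overlap rarer. Cxcl2 stayed lower in all 12 alternatives, at -1.08 to -0.70, and Ccrl2 at -1.42 to -0.41. Leaving out 1 array could not reverse either sign, since the groups of both genes do not overlap. Dropping dim probe sets, the intensity trend, the replicate block and keeping leading probe sets leave a gene's difference unchanged. Averaging does so too for a gene with 1 probe set. An equal offset on every array keeps the order of the readings, so it could not reverse either gene. Only the 2 normalizations could thus have reversed Cxcl2 or Ccrl2. Of 240 values of the 20 members in full, 218 kept direction and side of the threshold, which they were short of from the start. The other 22 reversed, 21 of them with an array left out and 1 otherwise, and the cause was not tested. Ccl25 turned to 0.10 with the mean of its probe sets, whose second probe set lies the other way. With an array left out the ranges were -0.41 to 0.12 for Ccl3, -0.23 to 0.35 for Cxcr4, -0.61 to 0.74 for Ccl4, -0.0765 to 0.26 for Ccl9, -0.0866 to 0.36 for Ccl5, -0.84 to 0.51 for Xcl1, -0.17 to 0.0308 for Cxcl17, -0.12 to 0.12 for Cx3cr1, -0.00122 to 0.76 for Ccl11, -0.44 to 0.14 for Cxcr3, -0.16 to 0.0807 for Cxcl3, -0.039 to 0.20 for Cxcl9, -0.59 to 0.0843 for Ccl25, -0.0862 to 0.0175 for Cxcl1 and -0.23 to 0.16 for Ccl1. Outside the family they were -0.35 to 1.09 for Vav1, -0.13 to 0.70 for Pf4 and -1.43 to 0.35 for Il1b. Background signal was not analysed here to set a detection limit for dim probe sets.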
